A study of Rattus norvegicus with 3 samples.

Results

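Peaks of the nuclear pore protein Seh1 that fell in the untranslated regions (UTRs) of transcripts or at the ends of genes were examined in rat oligodendrocyte progenitor cells (OPC). They are the intervals that the authors' deposited annotation places in a 5' UTR (64 peaks), in a 3' UTR (76 peaks) or at a transcription termination site (TTS, 127 peaks). These 267 peaks made up 2.94% of the 9084 annotated OPC peaks (95% exact binomial interval 2.60 to 3.31%), out of 9117 OPC peaks in all. The classes come from position alone, so the scores, the focus ratios and the overlap with later cells given below were not used to choose them.

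The study profiled chromatin by immunoprecipitation and sequencing (ChIP-seq) in cells from the forebrain of Sprague Dawley rat pups at postnatal day 1 to 2. OPC were kept with PDGF-AA (20 ng/ml), CNTF, bFGF and NT3. Immature oligodendrocytes (iOL) were made from them by withdrawing PDGF-AA, bFGF and NT3 and adding triiodothyronine (T3, 60 nM) for 1 day. The libraries were 1 of Seh1 in OPC, 1 of Seh1 in iOL and 1 with IgG in iOL. The labels name no genetic change in any group. ChIP-seq peaks do not measure expression, so the labelled cell type could not be checked against its marker genes. Every OPC peak was 205 bp wide and every iOL peak 209 bp. The depth of the libraries is unknown. With 1 library per stage there is no replicate error. The intervals below cover counting error only, and no test was made between stages or between classes.

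Seh1 is a subunit of the Y complex, the scaffold ring of the nuclear pore, and also of the GATOR2 complex that controls mTORC1. The 5' UTR is the part of a messenger RNA between the transcription start site (TSS) and the start codon, and its first exon often lies within the open chromatin of the promoter. The 3' UTR runs from the stop codon to the polyadenylation site and carries most microRNA target sites. The DNA just past it is where RNA polymerase II slows and is released. ChIP-seq finds the DNA under these parts of a gene, not the RNA.

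A few gene ends belonged to microRNA genes, which have no UTR and so can enter only the TTS class. Of the 127 TTS peaks, 6 were assigned to the end of a non-coding transcript. Of those transcripts 5 were the microRNA genes Mir760, Mir370, Mir139, Mir208b and Mir3072. Their peaks lay 684, 678, 159, 983 and 237 bp from the start of the gene, in that order. A peak of this class may thus lie past the gene itself. The genes were 5 of 465 microRNA genes (1.08%). A TTS peak was hosted by 116 of 23148 protein-coding genes, and a peak of any of the classes by 1.10% of them. The last share also counts UTR peaks, which microRNA genes cannot have. The mature sequences from RefSeq (GRCr8) are shown because these short RNAs are the products of the genes to whose ends the annotation assigns the peaks. Capitals mark the seed, bases 2 to 8. No seed was shared among the 8 mature sequences, which come from the first 4 genes, with Mir3072 named only.
rno-miR-760-3p: cGGCUCUGggucugugggga
rno-miR-760-5p: cCCCUCAGgccaccagagcccg
rno-miR-370-3p: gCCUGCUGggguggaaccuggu
rno-miR-370-5p: cAGGUCACgucucugcaguuacac
rno-miR-139-5p: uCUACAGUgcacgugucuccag
rno-miR-139-3p: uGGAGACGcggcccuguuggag
rno-miR-208b-3p: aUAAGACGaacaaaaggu
rno-miR-208b-5p: aAGCUUUUugcucgcguuau

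For the 5' UTR class, short stretches of the host promoters are shown because these peaks lie just downstream of them. Promoter sequence was matched for 44 of the 64 host genes (RefSeq, GRCr8). That is under 80%, so a comparison between the classes, of base composition or of the motif below, would be void and none was made. The motif shares are listed side by side only. Each stretch lies upstream of the start of the gene in that table, and capitals mark the GC box nearest to the start (GGGCGG, or CCGCCC on the other strand), the site of Sp-family factors. This motif was searched on both strands and occurs in 43.1% of 18999 promoters of protein-coding genes in the same table. Of the 44 matched promoters of 5' UTR hosts 29 held it (65.9%, 95% exact binomial interval 50.1 to 79.5%). Among matched promoters of 3' UTR hosts 43 of 59 held it (72.9%, 59.7 to 83.6%). Among those of TTS hosts 54 of 108 did (40.2 to 59.8%), as did 70.2% of 282 promoters of genes nearest to a promoter peak. These shares cover only the matched genes, and a match says nothing of Seh1. The genes are those of the 10 highest-scoring 5' UTR peaks that have such a box and a peak in their first exon, together with Nog.
Ago1 promoter: actcgttcccgtCCGCCCcctgggcccatc
Alkal2 promoter: gacgtgagggagGGGCGGagactgaagact
Tram1l1 promoter: gctcccgcgggtGGGCGGcggcggcgatcg
Zfyve9 promoter: ccgcaggcgggcGGGCGGcgcaaggcgcac
Lamc1 promoter: ggaggacgcgtaGGGCGGggagcagctcct
Nog promoter: acgcgccctgcgCCGCCCgcagccggggag

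The first question was how strong these peaks were. The measure is the deposited peak score, which is the authors' own value, is not defined in the header and moves in even steps. The 5' UTR peaks had a median score of 7.66 (95% exact order-statistic interval 7.02 to 7.66, range 6.38 to 16.0, n = 64). The 3' UTR peaks had a median of 7.02 (7.02 to 7.66, range 5.75 to 9.58, n = 76), and the TTS peaks a median of 7.66 (7.02 to 7.66, range 5.75 to 12.8, n = 127). All annotated OPC peaks had a median of 7.66 and ranged from 5.11 to 197.3. The medians of the classes therefore lay within 1 score step of each other, and the intervals met.

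The upper ends of the classes were compared next. A score of 10.2 or more, the 95th percentile of all annotated OPC peaks, was reached by 5.52% of them. Of the 5' UTR peaks 3 of 64 did (4.69%, 95% exact binomial interval 0.977 to 13.1%), and of the TTS peaks 6 of 127 (4.72%, 1.75 to 10.0%). No 3' UTR peak reached it, 0 of 76, which allows a share of up to 3.95% by the rule of 3 counts of the total (exact upper bound 4.74%). At the lower end, 57.9% of 3' UTR peaks scored 7.02 or less (46.0 to 69.1%), against 42.2% of 5' UTR peaks (29.9 to 55.2%) and 48.1% of all peaks, and both intervals include the last value.

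**Figure D1:**
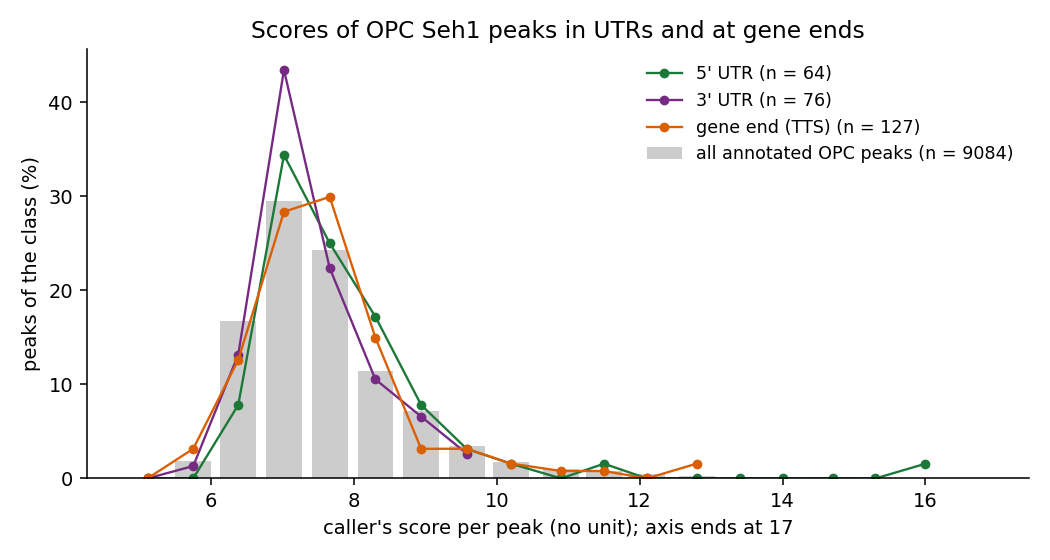
Percentage of peaks (vertical axis) at each value of the caller's score (horizontal axis) in the 5' UTR, 3' UTR and TTS classes (lines with points) and among all 9084 annotated OPC peaks (grey bars, with scores above 17 outside the axis). The 3' UTR class stands highest at 7.02 and ends at 9.58, while the 5' UTR class reaches 16.0 and the TTS class 12.8.

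Among 5' UTR peaks the highest score, 16.0, was at Pms2, a DNA mismatch repair gene (chromosome 12, 12736730 to 12736934, rn6). It lay in exon 2 of 14, at 1809 bp from the TSS, and also had the highest focus ratio of its class, 0.926. Ago1, the Argonaute protein that carries microRNAs to their targets, followed with 11.5 (chromosome 5, 193 bp from the TSS), then Alkal2, a ligand of the receptor kinases ALK and LTK, with 10.2 (chromosome 6, 400 bp). Tram1l1, a relative of the translocation factor Tram1, and Azin1, which relieves the block on polyamine synthesis, each scored 9.58. These 5 genes were the only hosts of 5' UTR peaks with a score above 8.94.

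Peaks with a score of 8.94 followed. They included, at 125 to 304 bp from a TSS, those of Nkx6-1, a homeobox factor of the ventral neural tube (chromosome 14, 9555287 to 9555491), of Zfyve9, which brings Smad proteins to the TGF-beta receptor, of the laminin chain gene Lamc1 and of Adra1d, an adrenergic receptor. All 10 leading 5' UTR peaks thus sat at protein-coding genes with their own start as the nearest TSS, and all but Pms2 lay within 400 bp of it.

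Among 3' UTR peaks the 2 highest, at 9.58, belonged to Ywhaz, the 14-3-3 zeta adaptor protein (chromosome 7, 75575400 to 75575604), and Ano1, a calcium-activated chloride channel (chromosome 1, 217755095 to 217755299). Peaks at 8.94 stood in the last exons of Pou3f1, Zfp46, Efna4, Engase and Rps6ka2. Pou3f1 is the POU factor known for its part in Schwann cell myelination, and its 3' UTR peak lay on chromosome 5 at 142645458 to 142645662, in exon 2 of 2. Efna4 encodes an ephrin ligand, Engase a deglycosylating enzyme and Rps6ka2 a kinase of the ribosomal S6 family. Trmt1, a tRNA methyltransferase, Cdca8, the chromosomal passenger protein borealin, and Ubtf, the factor that activates ribosomal RNA genes, came next with 8.3. That score was shared by 8 peaks of the class, of which these 3 come first in the deposited table.

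Among TTS peaks the highest score, 12.8, was shared by Lrrc41 (chromosome 5) and Fbxo11, an F-box protein of a ubiquitin ligase (chromosome 6). The microRNA genes Mir760 and Mir370 were also among the leading peaks: Mir760 with 10.9 (chromosome 2, 225872647 to 225872851) and Mir370 with 10.2 (chromosome 6, 133740492 to 133740696). The serine protease gene Prss57 also had 10.2. Yae1, Ypel2, the hormone subunit gene Lhb and the GTPase gene Arl5c had 9.58, and Yae1 had the highest focus ratio of the TTS class, 0.941.

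The second question was where the peaks lay along their genes. The 5' UTR peaks clustered just past the start: the median distance to the TSS was 220 bp, with quartiles of 144 and 318 bp, and 54 of 64 lay between 100 and 500 bp. The nearest were at Abhd14a (102 bp), Mybl2, a cell cycle factor (107 bp), Mtmr14, a lipid phosphatase (108 bp), Tsc22d1 (110 bp) and Lrmda (113 bp). No 5' UTR peak came closer than 102 bp. This floor is set by the annotation and is no finding, since HOMER's usual setting gives the first 100 bp past a TSS to the promoter class.

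The 5' UTR class was also divided by exon number. In 51 of 64 the peak was in exon 1, 102 to 531 bp from the TSS. In 11 it was in exon 2, 262 to 11578 bp away, and in 2 in exon 3. The farthest were Setd5, a SET-domain gene (exon 3 of 24, 32.9 kb), Pskh1, a kinase gene (exon 2 of 3, 11.6 kb), Mymk, the muscle fusion gene myomaker (exon 3 of 5, 5586 bp), Zfp94, a zinc finger gene (2909 bp), and Pms2. The distances of exon 1 and exon 2 peaks overlapped. The median score was 7.66 in exon 1 and in exon 2, and the 2 peaks in exon 3 scored 7.66 (Setd5) and 7.02 (Mymk). In 4 peaks the transcript had a single exon, and these had a median score of 8.3.

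The 3' UTR peaks lay in the last exon in 75 of 76, the exception being Trmt1 (exon 15 of 16). Transcripts in this class had a median of 9 exons and up to 67, in the collagen gene Col5a3. The median absolute distance to a TSS was 15.9 kb, with quartiles of 6.97 and 29.0 kb. The nearest peaks were at short genes, the single-exon genes Fundc2b (864 bp) and Hdgfl1 (1096 bp), then Six6, an eye homeobox gene (1905 bp), and Pou3f1 (1961 bp), with Wdr81 at -1834 bp from the start of its neighbour Serpinf2. The farthest were at Snap25, a synaptic fusion protein gene (90.5 kb), at Tgfa, a ligand of the EGF receptor (83.1 and 80.3 kb), and at Cpne5 and Rhobtb1, whose nearest starts were those of the cell cycle genes Cdkn1a (73.0 kb) and Cdk1 (63.4 kb).

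The TTS peaks had a median absolute distance of 7.32 kb (quartiles 2.88 and 19.4 kb). The farthest were at Dclk2, a doublecortin-like kinase gene (129.2 kb), Capn13, a calpain gene (97.0 kb), Iqgap1, an actin scaffold gene (91.6 kb), and Pik3c2g (77.8 kb). The nearest lay within 237 bp of a start: at the end of Anapc11, a subunit of the anaphase-promoting complex (142 bp from the start of Npb), at Mir139 (159 bp), at the end of Sec16a (167 bp from the start of Inpp5e), at an end near Hsf4 (185 bp) and at Mir3072 (237 bp). For the microRNA genes a short distance is partly given by gene length, because the end of such a gene lies close to its start. How far past a gene end the TTS class reaches was not examined.

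**Figure D2:**
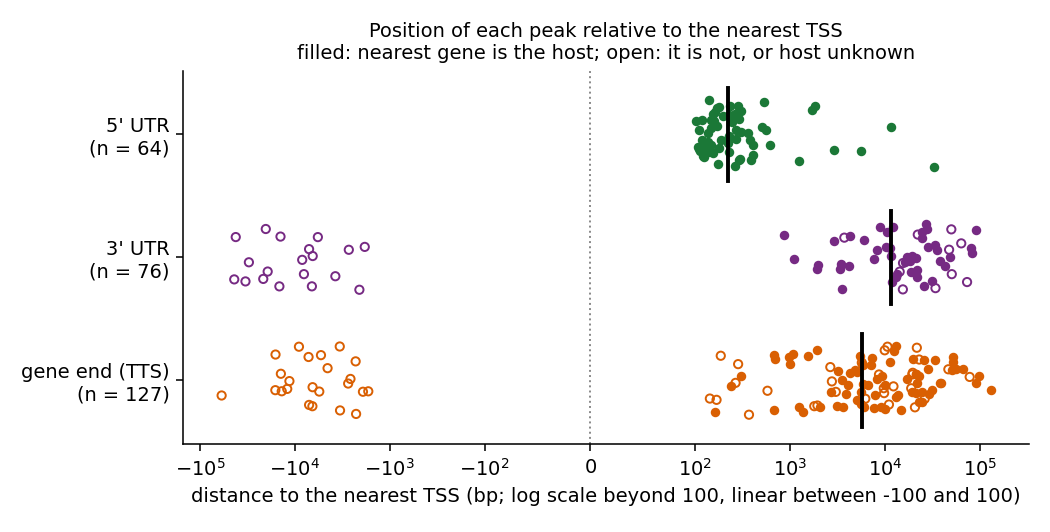
Signed distance of each peak to the nearest TSS in bp (horizontal axis, log scale beyond 100 bp and linear within it; negative is upstream) for the 3 classes, 1 point per peak, with black bars at the medians. Filled points are peaks whose nearest gene is also the host, and the 5' UTR points are all filled and crowd around 220 bp, while 3' UTR and TTS points spread to both sides.

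The third question was whether the nearest gene of the table is the gene whose UTR or end holds the peak. The host was taken from the transcript that the annotation names, and it was known for 263 of 267 peaks, which belonged to 261 genes. For 5' UTR peaks host and nearest gene were the same in 64 of 64. For 3' UTR peaks they were the same in 46 of 76 (60.5%, 95% exact binomial interval 48.6 to 71.6%), and for TTS peaks in 74 of 123 (60.2%, 50.9 to 68.9%). About 2 in 5 peaks at the far end of a gene therefore carry the name of another gene in the deposited table.

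That other gene was mostly the next one. Of 29 such 3' UTR pairs with both genes in the gene order of GRCr8, 25 were direct neighbours among coding genes, and of 47 TTS pairs 44 were. In 19 of the 30 3' UTR pairs and 22 of the 49 TTS pairs the peak lay upstream of the neighbour's start. The peak at the end of Rhoa, the GTPase of stress fibres, is listed under Gpx1 (-2263 bp), the one at the end of Hmx2, a homeobox gene, under Bub3 (-3341 bp), and the one in the 3' UTR of Ano1 under Fadd (-6616 bp). In the remaining pairs the peak lay on the transcribed side of the neighbour's start: the end of Cdc45, a replication factor, is listed under Cldn5, the tight junction gene of blood vessels (2642 bp), and the 3' UTR of Dip2a under the astrocyte marker gene S100b (15.4 kb).

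Counted by direction, 225 of 267 peaks lay downstream of the nearest TSS (84.3%), where 57.6% of all annotated peaks did. They were 64 of 64 in 5' UTRs, 57 of 76 in 3' UTRs and 104 of 127 at gene ends. A peak inside or past a gene is downstream of that gene's own start by definition, so the excess follows from the classes and is given as a description. When the host was the nearest gene, the median distance was 16.7 kb for 3' UTR peaks (n = 46) and 8.03 kb for TTS peaks (n = 74).

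The deposited table holds 3 further class columns in which the promoter takes in more of the gene, and by them most 5' UTR peaks are promoter peaks. With 1 kb, 57 of the 64 became promoter peaks, with 2 kb 60 and with 5 kb 61. The 3 left at 5 kb were those beyond it, at Setd5, Pskh1 and Mymk. Of the TTS peaks 15, 22 and 35 of 127 changed class in the same columns, and of the 3' UTR peaks 1, 4 and 11 of 76. No peak moved to a class other than promoter, so the 3' UTR class depended least on this choice.

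The fourth question was how sharp the peaks were. The focus ratio in the deposited table is a fraction from 0 to 1 that HOMER reports for how well the reads sit around a single centre. The 5' UTR peaks had a median of 0.722 (95% exact order-statistic interval 0.700 to 0.750), the 3' UTR peaks 0.750 (0.737 to 0.778) and the TTS peaks 0.778 (0.750 to 0.800). All annotated peaks had a median of 0.778 (0.773 to 0.778). The interval of the 5' UTR class lay below that of all peaks, and those of the 3' UTR and TTS classes met it.

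Promoter peaks, the class next to the 5' UTR along the gene, had a median focus ratio of 0.750 (0.737 to 0.765, n = 365), and exon peaks 0.762 (0.750 to 0.765, n = 618). Both intervals also lay below that of all annotated peaks, so a lower focus ratio was not particular to 5' UTRs. The order of 5' UTR, 3' UTR and TTS peaks was the same among peaks of score 7.02. There the medians were 0.742 in 5' UTRs (n = 22), 0.765 in 3' UTRs (n = 33) and 0.786 both at gene ends (n = 36) and over all peaks. Among peaks of score 7.66 it was not: they were 0.722, 0.750 and 0.732, against 0.778 over all peaks, so that the 5' UTR class was lowest at both scores and the place of the TTS class changed. The least focused members of their classes were Gpd1, a glycerol phosphate dehydrogenase gene (3' UTR, 0.550), Slmap, a membrane protein gene of muscle (5' UTR, 0.560), and Actb (TTS, 0.583). The most focused 3' UTR peak was at C15h14orf93 (0.929).

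**Figure D3:**
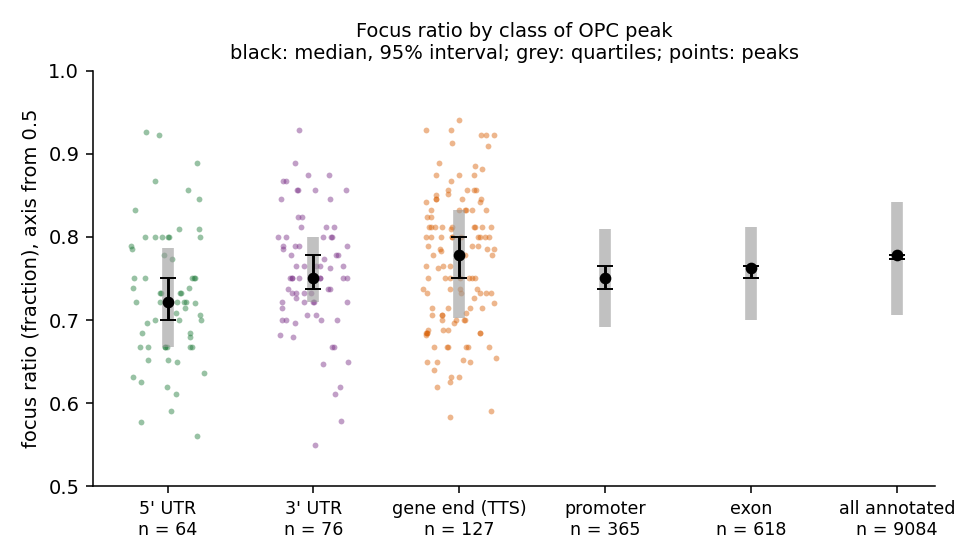
Focus ratio (vertical axis, a fraction, drawn from 0.5) of OPC peaks in the 3 classes, at promoters, in exons and over all annotated peaks; black points with bars are medians with 95% exact order-statistic intervals, grey bars the quartiles and small points single peaks of the 3 classes. The median rises from 0.722 in 5' UTRs to 0.750 in 3' UTRs and 0.778 at gene ends, the value of all peaks.

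The fifth question was which of these places were also called after 1 day of T3. An overlap of 1 bp or more with an iOL peak was found for 1.73% of all annotated peaks. Among UTR and gene-end peaks 1 of 267 did (0.375%, 95% exact binomial interval 0.00948 to 2.07%), at the end of Spint1, an inhibitor of serine proteases at the cell surface (chromosome 3, 111062222 to 111062426, score 7.66). There the overlap covered the whole 205 bp. No 5' UTR peak overlapped, 0 of 64, which allows up to 4.69% by 3 counts (exact upper bound 5.60%), and no 3' UTR peak, 0 of 76, which allows up to 3.95% (4.74%). The limit or interval of each group of members includes 1.73%.

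A few members missed an iOL peak by less than the width of a peak. Gaps were 46 bp at the end of Tfb1m, a mitochondrial rRNA methyltransferase gene, 79 bp in the 3' UTR of Ankrd40, 103 bp at the end of Actb, the beta-actin gene (chromosome 12, 13718819 to 13719023), and 191 bp in the 3' UTR of Ywhaz. No other member lay within 1000 bp of an iOL peak, so that 5 of 267 did (1.87%, 0.611 to 4.32%) where 2.88% of all annotated peaks did. All 5 were at the far ends of genes, and none was in a 5' UTR.

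Wider distances took in more members. Within 10 kb of an iOL peak were 15 of 76 3' UTR peaks (19.7%, 11.5 to 30.5%), 18 of 127 TTS peaks (14.2%, 8.62 to 21.5%) and 7 of 64 5' UTR peaks (10.9%, 4.51 to 21.2%), where 10.3% of all annotated peaks were. The interval of the 3' UTR class lies above 10.3%, the other two include it, and the intervals of the 3 classes overlap. Exon peaks also lay above it (16.5%, 13.7 to 19.7%), so nearness to iOL peaks was not particular to 3' UTRs. Within 50 kb the shares were 38 of 76 in 3' UTRs (38.3 to 61.7%), 44.1% at gene ends (35.3 to 53.2%) and 35.9% in 5' UTRs (24.3 to 48.9%), where 34.9% of all annotated peaks were. The 3' UTR peaks near iOL peaks included those of Cdca8 (1197 bp), Pou3f1 (1323 bp), Tpm1, a tropomyosin gene (2101 bp), and Scd2, a fatty acid desaturase gene (5177 bp). The 5' UTR peaks included those of Mymk (1078 bp), Lrmda (1862 bp) and Foxe1, a forkhead factor gene (3187 bp).

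Neighbours within OPC were counted in the same way. Another annotated OPC peak lay within 10 kb of 17 of 76 3' UTR peaks (22.4%, 95% exact binomial interval 13.6 to 33.4%), of 10 of 64 5' UTR peaks (15.6%, 7.76 to 26.9%) and of 16 of 127 TTS peaks (12.6%, 7.38 to 19.7%), where 11.9% of all annotated peaks had one. Exon peaks had one in 18.1% (15.2 to 21.4%). Within 50 kb the 3' UTR, TTS and exon classes were alike, with 55.3%, 54.3% and 54.7%, and the 5' UTR class had 43.8%, near the 43.6% of all annotated peaks. The part of this density in the nearness to iOL peaks was not tested. No IgG library of OPC was used here, so the background of OPC at these places was not measured.

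**Figure D4:**
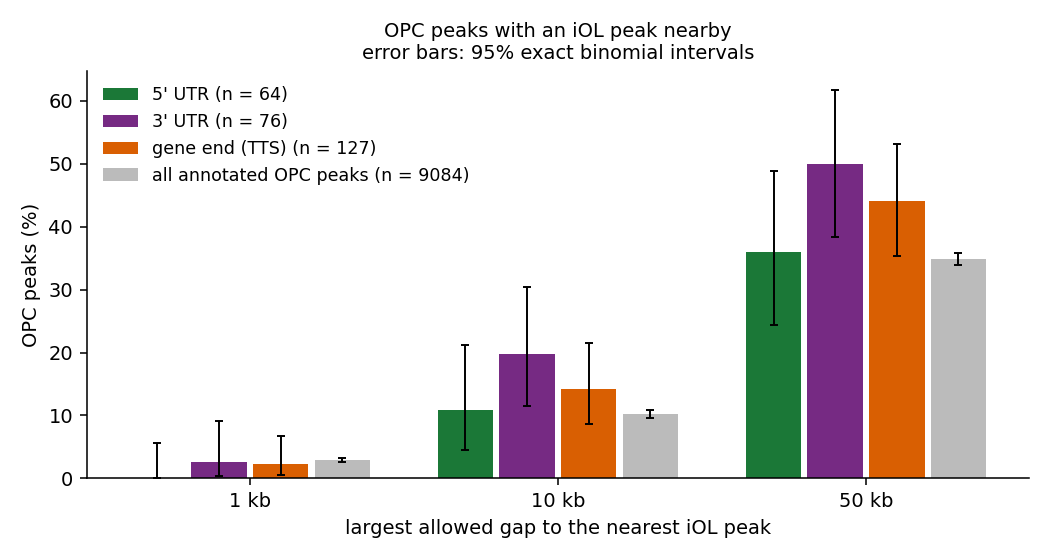
Percentage of OPC peaks (vertical axis) with an iOL peak within 1, 10 or 50 kb (horizontal axis) in the 3 classes and among all 9084 annotated peaks; bars are shares and error bars 95% exact binomial intervals. At 10 kb the 3' UTR bar stands at 19.7% and the grey bar of all peaks at 10.3%, while at 1 kb no 5' UTR peak was counted.

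Few genes held 2 members. Tgfa had 2 peaks in its 3' UTR, 2829 bp apart, with scores of 8.3 and 6.38. Tuba3a, an alpha-tubulin gene, had 2 peaks at its end, 566 bp apart, with 7.02 and 6.38; it has close relatives in the tubulin family, among them Tuba3b with a TTS peak of its own, and the placing of reads with several matches is not stated. More often the gene had further peaks: for 30 of 64 peaks in 5' UTRs, 37 of 76 in 3' UTRs and 42 of 127 at gene ends it was the nearest gene of at least 1 other OPC peak. Among all genes nearest to an annotated OPC peak, 2001 of 5796 had more than 1 peak; that count is over genes and not over peaks, so the values are given side by side only. Among the hosts of members, Rasd2, a small GTPase gene of striatal neurons, had the most, 7 besides its 5' UTR peak. They were 1 at the promoter (score 9.58), 1 in an intron and 5 between genes. Over all 5796 genes the largest number was 11 peaks. Septin9, whose symbol the deposited table had turned into a date, had 5 besides its 3' UTR peak.

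The last question was which gene groups the members fell in. Of all protein-coding genes 1.10% hosted a UTR or gene-end peak, and 24.2% were the nearest gene of any annotated OPC peak. The lists chosen for the cell lineage had at most 1 host each. The OPC genes and differentiation inhibitors had 1 of 37, Lingo1, the Nogo receptor partner that holds back myelination, with a 5' UTR peak at 122 bp (chromosome 8, 61290016 to 61290220, score 7.02). The lineage regulators had 1 of 37, Nkx6-1, and the list of Wnt, Notch and BMP signalling had 1 of 45, Nog, the antagonist of BMP proteins, with a 5' UTR peak at 149 bp (chromosome 10, 76813135 to 76813339, score 8.3). Of 34 myelin and mature oligodendrocyte genes none hosted a member, while 16 were the nearest gene of some OPC peak.

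Other lists gave single genes. Nup88, a nucleoporin of the cytoplasmic face of the pore, was the only host among 30 nucleoporin genes, with a TTS peak at 24.7 kb and a score of 5.75, the lowest in the class. Bcl7b was the only host among 38 chromatin remodelling genes (5' UTR, 293 bp, score 7.02), and Mycn, the proto-oncogene transcription factor, among 35 cell cycle genes (5' UTR, 184 bp, score 7.66). Of 34 cytoskeleton genes 2 were hosts, both with TTS peaks: Actb (score 7.66) and Rhoa (6.38). The regulatory genes Nkx6-1, Nog, Mycn, Lingo1 and Bcl7b all had their peak in the 5' UTR, and the structural genes Actb, Rhoa and Nup88 at the end; with 1 or 2 genes a list this is a description only.

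Markers of other cell types were few as well. The astrocyte list had 1 host of 22, Mlc1, a membrane protein of astrocyte end feet, with a TTS peak of 8.94 on chromosome 7. The neuron list had 1 of 28, Snap25 (3' UTR, 6.38), and the microglia and vascular lists had none of 22 each. By nearest gene the vascular list would gain Cldn5 and the astrocyte list S100b. Their peaks lie at the end of Cdc45 and in the 3' UTR of Dip2a, as given above.

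The broad gene families likewise gave few hosts. Zinc finger genes named Zfp had 4 hosts of 420: Zfp94 (5' UTR), Zfp46 (3' UTR), Zfp428 and Zfp597 (TTS). Solute carriers had 2 of 423, Slc25a24, a mitochondrial carrier, and Slc7a1, a transporter of cationic amino acids, both in the 3' UTR with a score of 7.02. Histone genes had 1 of 84, Hist1h2bg (TTS, score 7.66), and microRNA genes 5 of 465, all in the TTS class with scores of 6.38 to 10.9. Ribosomal protein genes, olfactory receptors and small nucleolar RNA genes had none, although 1 TTS peak whose host was not matched is listed under Rpl19.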

How the data were processed

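The authors deposited 1 peak list per Seh1 library and 1 annotated table. Per the file headers the table was written by HOMER on rn6 from OPC peaks called with the IgG of iOL; all 9084 of its intervals equal OPC intervals and 0 equal iOL intervals. Per the submitters' processing notes Bowtie2 was also used; versions, thresholds and duplicate removal are not stated there. The deposited score per peak, the focus ratio (a fraction) and the distance to a TSS were used as they stand. Classes come from the first of 2 columns with the same name, which equals the class in the full annotation for all 9084 peaks; the second equals the first in 41.0% and was not used. Hosts were matched by transcript accession, 251 through the gene name table of GRCr8 (names and gene order only) and 12 through the deposited table. Shares have exact Clopper-Pearson and medians exact order-statistic 95% intervals (scipy 1.17.1); a count of 0 also has a limit of 3 counts. A gap is counted between peak edges. Members, the 19 gene lists and alternatives were chosen with earlier results of these data known. Genes named are, per class, the 10 highest scores, the 5 nearest to and farthest from a TSS, the extreme focus ratios, overlaps with iOL, genes with 2 members and genes on a list; others named were chosen after their values were seen. Tested on simulated data over 9084 peaks, the overlap count recovered 200 of 200 planted overlaps in each run. The planted intervals overlapped by design, so this checks only the counting, and false overlaps were not tested. Some genes that this rule selects are not reported here.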

Additional observations from a re-analysis of the deposited data

How the results depend on the processing

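Over 22 results and 59 alternatives, 42 values stayed within the 95% interval of the main value or within 1.5 times the main count, and 17 moved. Counting 1 peak per nearest gene and class raised the shares to 0.946% (5' UTR), 1.11% (3' UTR) and 1.85% (TTS), which have a smaller total. With the promoter widened by 1, 2 and 5 kb, chosen after seeing the data, the 5' UTR share was 0.0771%, 0.0440% and 0.0330%, and with 2 and 5 kb the TTS share was 1.16% and 1.01%. The iOL counts were 2 (3' UTR) and 3 (TTS) within 1000 bp, and 7, 15 and 18 (5' UTR, 3' UTR, TTS) within 10 kb, the latter added after seeing the data. With 50 kb in place of 10 kb, 28, 42 and 69 members had another OPC peak nearby. Of 22 list genes hosting a member, 11 had a score at or above the median of 7.66. Medians of score and focus ratio stayed within their intervals under the alternatives run. The median signed distance, 11.6 kb (3' UTR) and 5.68 kb (TTS), was 16.7 and 8.03 kb with the host as nearest gene and 10.9 and 4.06 kb for scores at or above the median; absolute distances were not rerun. No paired analysis was possible because each group has 1 library, and no replicate could be left out. Depth is unknown.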

Other observations

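Some members lay close together along a chromosome although they belong to different genes. The 5' UTR peak of Plxdc1 and the TTS peak of Arl5c started 2409 bp apart on chromosome 10, and another TTS peak, listed under Rpl19, started 48.0 kb further on. The TTS peaks of Them4 and Them5, acyl-CoA thioesterase genes, started 11.1 kb apart on chromosome 2. On chromosome 6 the gene-end peaks of Mir370, a microRNA of the imprinted Dlk1-Dio3 locus, and Mir3072 started 158.4 kb apart. On chromosome 4 the 5' UTR peaks of Setd5 and Mtmr14 flanked the TTS peak of Lhfpl4, with starts 66.0 and 78.6 kb apart. These pairs were picked after their positions were seen.

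The members spread over all autosomes and chromosome X. Chromosome 7 held 25 of the 267 (9.36%, 95% exact binomial interval 6.15 to 13.5%), where it held 6.08% of all annotated OPC peaks. Chromosome 16 held 3 (1.12%, 0.232 to 3.25%), where it held 3.13%. Of 21 chromosomes these are the ones with the largest difference above and below the share of all annotated peaks, and they are shown for that reason. The shares were not tested, and the number of genes per chromosome was not taken into account.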
